A study of Mus musculus with 15 samples.

Results

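The endothelin and adrenomedullin systems were followed in cultured mouse lymphatic endothelial cells (LECs) through 10 genes, taken as every probe set of the deposited values whose single annotated gene symbol was Edn1, Edn3, Ednra, Ednrb, Ece1, Adm, Calcrl, Ramp1, Ramp2 or Ramp3. Of these genes, 9 were each measured by 1 probe set, out of 22206 probe sets in all, 19572 of them with 1 symbol. No probe set carried Ednra, the endothelin A receptor, as its single symbol, and it was not analysed here. The cells, which the labels call a cell line and the methods describe as purchased, were grown in DMEM with serum. They were compared as 5 samples given saline (control), 5 given angiotensin II (Ang II) for 12 h and 5 given Ang II for 24 h, each on its own Affymetrix array, 15 in all. The labels give Ang II at 500 nM, and the methods name a far lower concentration beside it. No source states when the saline control was harvested, so Ang II and culture time cannot be told apart in a comparison with control. Whether the 5 samples of a group were separate cultures is not stated either, and p-values here measure a spread between samples that may be technical.

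Endothelins are short vasoactive peptides that converting enzymes, among them Ece1, cut from larger precursors, and they act on the G protein-coupled receptors A and B. Adrenomedullin, the product of Adm, acts on a receptor built from Calcrl and a receptor activity-modifying protein: Ramp2 or Ramp3 makes it an adrenomedullin receptor, and Ramp1 makes it a receptor for calcitonin gene-related peptide. In mice, Adm, Calcrl and Ramp2 are needed for lymphatic vessels to form normally, and in blood vessel endothelium Edn1 is known as a gene that Ang II can induce.

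The values are log2 expression levels made with RMA, an algorithm that corrects background, normalizes between arrays and summarizes the probes of a set. Testing was done with limma, a linear model with moderated variances, with a Benjamini-Hochberg adjustment across the 22206 probe sets and an adjusted p under 0.05 as the threshold. A mark of low signal was set at a log2 level of 6.26, the 95th percentile of 487 probe sets of families rarely expressed beyond specialised tissues, such as taste receptors and defensins. In all 3227 probe sets (14.53%) had a mean level above the mark. A level below the mark does not show that a gene is silent: of 57 ribosomal protein probe sets, 33 lay above it. Among the lymphatic endothelial markers Lyve1, Prox1, Flt4, Pdpn, Ccl21a and Foxc2, 1 of 6 (Ccl21a) lay above the mark, and among the endothelial markers Pecam1, Cdh5, Kdr, Tek, Tie1 and Emcn 0 of 6 did. The defining markers of the labelled cell type were thus mostly at low signal on these arrays. Of the markers of other cells, 1 of 3 for leukocytes (Ptprc) and 2 of 4 for epithelium (Krt8 and Krt18) lay above the mark. Adgre1 and Csf1r of leukocytes and Epcam and Cdh1 of epithelium lay below it. It was 0 of 4 for fibroblasts and 0 of 7 for smooth muscle and pericytes. Array medians were 4.80 to 4.82 in control, 4.81 to 4.84 at 12 h and 4.82 to 4.84 at 24 h on the log2 scale. The arrays labelled control replicate 3 and 24 h replicate 3 stood apart from the others, with residual SDs over all probe sets of 0.375 and 0.334. Those of the other arrays were 0.289 to 0.319, so 24 h replicate 3 was only slightly beyond them.

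No measured gene of either system passed the test at either time. When all 3 groups were tested together by F test, 0 of 9 passed after adjustment, where 0.0225% of all probe sets did. After 12 h of Ang II against control it was 0 of 9, where 0% of all probe sets passed, after 24 h against control 0 of 9 (0.018% of all), and between the Ang II times 0 of 9 (0.0225% of all). Before adjustment, a p under 0.05 was reached by 0 of 9 in the F test (6.25% of all probe sets), 1 of 9 at 12 h against control (4.91% of all), 0 of 9 at 24 h against control (7.1% of all) and 0 of 9 at 24 h against 12 h (5.99% of all). The 1 was Ramp2, which was lower at 12 h. In no contrast did the arrays of the groups separate for any of the 9, where 0.689% of all probe sets had groups that did not overlap at 12 h against control, 1.07% at 24 h against control and 1.2% at 24 h against 12 h. The median log2 difference of the 9 was -0.06 at 12 h against control, beside 0.00 for all probe sets, and -0.05 at 24 h against control, beside 0.00 for all. The mean of Edn1 at 24 h was higher than in control and those of the other 8 were lower, but for Ramp3, Ednrb and Ramp2 by only 0.01, 0.04 and 0.05, and without control replicate 3 Ednrb and Ramp2 were higher, by 0.15 and 0.07. In bulk RNA, a difference in the number of expressing cells and one in RNA per cell cannot be told apart. Ramp1 was the only one of the 9 with a mean level above the mark of low signal, so the measurements of the other 8 genes rest on dim probe sets.

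**Figure D1:**
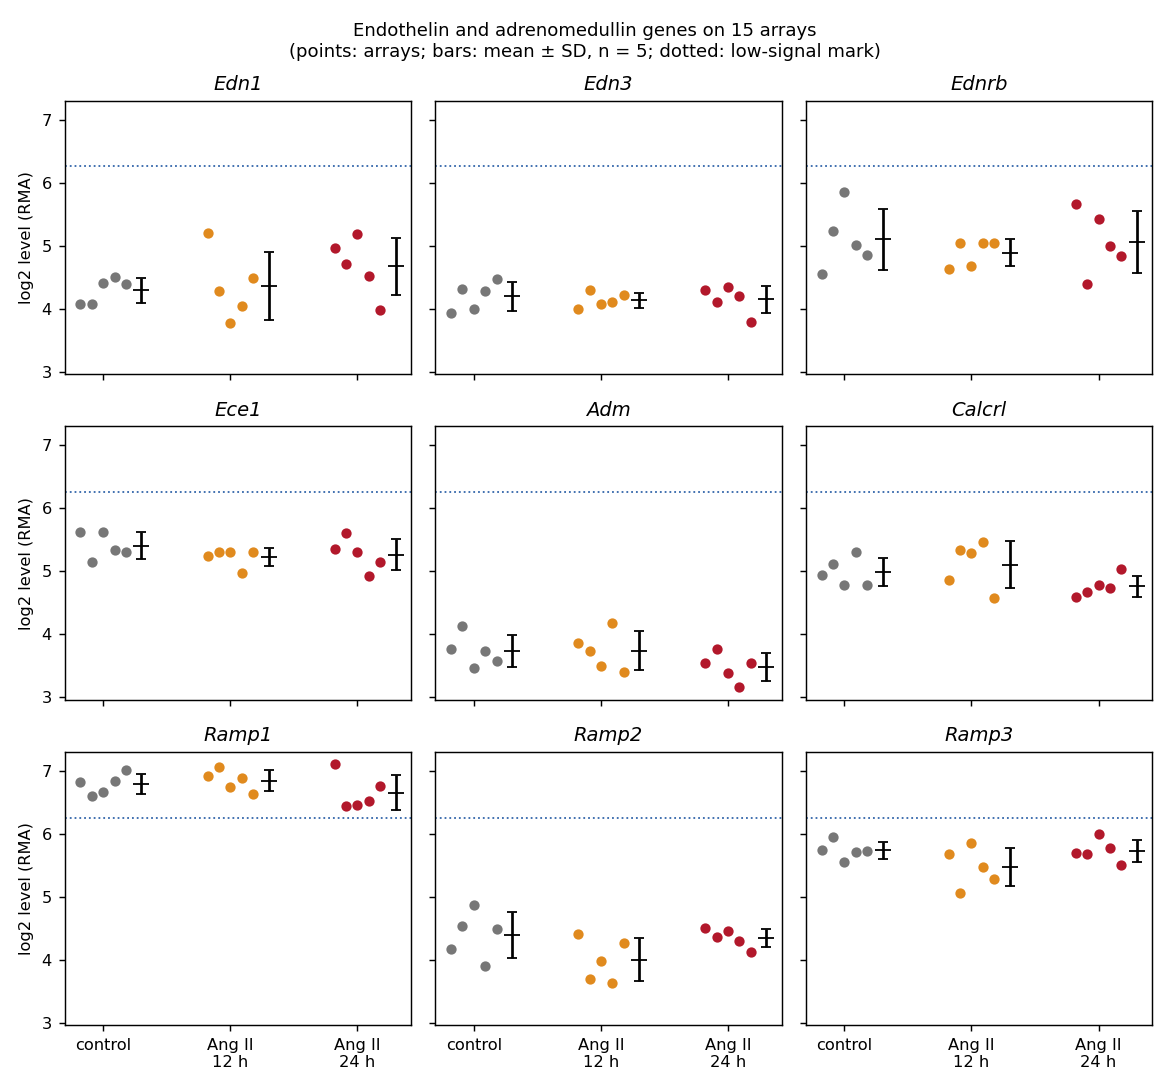
Log2 expression level of the 9 measured genes on every array in control, Ang II 12 h and Ang II 24 h samples, with group means and SDs. The groups overlapped for every gene, and Edn1 and Ednrb were the most spread within groups.

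Edn1, the precursor gene of endothelin-1, had log2 levels of 4.07, 4.07, 4.41, 4.50 and 4.40 in the control samples, 5.20, 4.28, 3.77, 4.05 and 4.48 at 12 h and 4.96, 4.71, 5.18, 4.52 and 3.98 at 24 h. The 5 control values were close together, while both Ang II groups held values above and below all of them. At 24 h, 4 of 5 samples lay above every control sample and 1 below every control sample. Group means were 4.29 ± 0.20 in control, 4.36 ± 0.54 at 12 h and 4.67 ± 0.46 at 24 h (SD, n = 5 each). The log2 difference was 0.07 at 12 h against control (standard error 0.24, adjusted p = 0.998) and 0.38 at 24 h against control (standard error 0.24, adjusted p = 0.778). The 95% interval of the difference at 24 h ran from -0.11 to 0.87, a fold of 0.926 to 1.83, and included no difference. By an exact two-sided permutation test over samples, p was 0.119 for that contrast, where the smallest p that 5 against 5 samples allow is 0.00794. With 1 array left out at a time, the log2 difference at 24 h against control ran from 0.25 (without 24 h replicate 3, the highest sample, on an array that stood apart) to 0.55 (without 24 h replicate 5, the lowest). It was 0.28 without both arrays that stood apart, and the lowest adjusted p of these was 0.720.

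Edn3, the gene of endothelin-3, had the smallest spread within groups of the 9. Its mean log2 levels were 4.20 ± 0.23 in control, 4.13 ± 0.12 at 12 h and 4.15 ± 0.22 at 24 h (SD, n = 5 each), and all 15 values fell between 3.79 and 4.47. Its fitted log2 difference was -0.06 at 12 h against control (95% interval -0.37 to 0.24) and -0.05 at 24 h against control (-0.35 to 0.25). Ece1, the converting enzyme that releases active endothelin, had mean log2 levels of 5.41 ± 0.21 in control, 5.23 ± 0.14 at 12 h and 5.27 ± 0.25 at 24 h. Both Ang II groups had a lower mean, by differences smaller than the spread of the control samples. For Ece1 the log2 difference was -0.18 at 12 h (95% interval -0.49 to 0.13, adjusted p = 0.969) and -0.14 at 24 h (-0.45 to 0.17, adjusted p = 0.903), each against control. Of the 12 h samples, 4 lay between 5.25 and 5.31 and replicate 4 lay at 4.97. Without that replicate the 12 h difference was -0.12, and the 24 h difference was -0.06 without 24 h replicate 4.

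Ednrb, the endothelin B receptor, which binds all endothelins and in endothelium is coupled to nitric oxide release, had log2 levels of 4.55, 5.24, 5.85, 5.01 and 4.85 in control, 4.63, 5.05, 4.67, 5.04 and 5.05 at 12 h and 5.66, 4.39, 5.42, 4.99 and 4.83 at 24 h. The 12 h samples were the closest together and lay inside the range of the control samples. The highest control value was that of replicate 3, 1 of the arrays that stood apart. Group means were 5.10 ± 0.49 in control, 4.89 ± 0.22 at 12 h and 5.06 ± 0.50 at 24 h (SD, n = 5 each). For Ednrb the log2 difference was -0.21 at 12 h (95% interval -0.70 to 0.28) and -0.04 at 24 h (-0.53 to 0.45), each against control. Without control replicate 3 the difference at 12 h was -0.02 and that at 24 h had the other sign, 0.15. Without both arrays that stood apart the values were -0.02 at 12 h and 0.06 at 24 h.

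The residual SD, the spread of the log2 level within groups, was 0.427 for Edn1 and 0.422 for Ednrb, at the 91.2 and 90.7 percentiles of all probe sets. The 15 values of these genes spanned 1.43 and 1.46 on the log2 scale. The other 7 genes had residual SDs of 0.194 (Edn3) to 0.303 (Ramp2), beside a median of 0.283 over all probe sets. The intervals of the differences were therefore wider for Edn1 and Ednrb than for the other genes.

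Adm, the adrenomedullin gene, had log2 levels of 3.77, 4.14, 3.47, 3.74 and 3.57 in control, 3.87, 3.74, 3.50, 4.18 and 3.40 at 12 h and 3.55, 3.77, 3.39, 3.16 and 3.54 at 24 h. The 12 h samples spread over about the same range as the control samples, and the 24 h samples all lay below the midpoint of that range. Group means were 3.74 ± 0.26 in control, 3.74 ± 0.31 at 12 h and 3.48 ± 0.23 at 24 h (SD, n = 5 each). The log2 difference was 0.00 at 12 h against control (95% interval -0.35 to 0.35) and -0.26 at 24 h against control (-0.61 to 0.10, a fold of 0.655 to 1.07, adjusted p = 0.795). The exact permutation p at 24 h against control was 0.151. With 1 array left out at a time the difference at 24 h ran from -0.33 to -0.16, with -0.16 without control replicate 2, the highest control sample.

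Calcrl, the receptor chain that all 3 Ramp proteins pair with, had log2 levels of 4.94, 5.12, 4.79, 5.30 and 4.79 in control, 4.87, 5.34, 5.29, 5.46 and 4.57 at 12 h and 4.59, 4.67, 4.78, 4.73 and 5.03 at 24 h. At 24 h, 4 of 5 samples lay just below the lowest control sample, and 1 lay within the control range. Group means were 4.99 ± 0.22 in control, 5.11 ± 0.37 at 12 h and 4.76 ± 0.17 at 24 h (SD, n = 5 each). The log2 difference was 0.12 at 12 h against control (95% interval -0.24 to 0.47) and -0.23 at 24 h against control (-0.58 to 0.13). Between the Ang II times, 24 h against 12 h, it was -0.35 (-0.70 to 0.01, a fold of 0.615 to 1.01). For this last contrast the adjusted p was 0.846 and the exact permutation p was 0.103. With single arrays left out, the 12 h difference from control ran from 0.03 to 0.25 and the 24 h one from -0.30 to -0.15.

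Ramp2, the accessory protein that makes Calcrl an adrenomedullin receptor, was lowest at 12 h. Its log2 levels were 4.18, 4.54, 4.87, 3.90 and 4.49 in control, 4.42, 3.70, 3.99, 3.64 and 4.27 at 12 h and 4.50, 4.36, 4.46, 4.30 and 4.13 at 24 h. Of the 12 h samples, 2 lay below every control sample and the other 3 lay within the control range. Group means were 4.40 ± 0.37 in control, 4.00 ± 0.34 at 12 h and 4.35 ± 0.15 at 24 h (SD, n = 5 each). The log2 difference was -0.39 at 12 h against control (standard error 0.18, 95% interval -0.78 to -0.01, a fold of 0.584 to 0.995), with an adjusted p of 0.966 by limma and an exact permutation p of 0.127. At 24 h the group mean was again close to that of control, with a log2 difference of -0.05 against control (-0.43 to 0.34) and of 0.35 against 12 h (-0.04 to 0.73, adjusted p = 0.866, exact permutation p = 0.0794). The value at 12 h depended on single arrays: without control replicate 3, which stood apart and held the highest Ramp2 value, the difference from control was -0.27. Over the same arrays, the summed log2 level of the 7 smooth muscle and pericyte markers was 35.97 to 38.07 at 12 h and 35.47 to 37.32 in control, and that of the 6 endothelial markers 25.95 to 26.82 at 12 h and 25.17 to 26.60 in control. For the 4 fibroblast markers the sum was 19.58 to 21.31 at 12 h and 19.82 to 20.75 in control, and for the 3 leukocyte markers 15.81 to 17.70 at 12 h and 15.72 to 16.20 in control. The 6 lymphatic endothelial markers summed to 28.96 to 30.30 at 12 h and 28.49 to 29.95 in control, and the 4 epithelial ones to 22.44 to 23.02 at 12 h and 22.29 to 24.03 in control. The ranges of all 6 marker sums overlapped between the groups. Single markers with an unadjusted p under 0.05 at 12 h against control were Epcam of epithelium, with a log2 difference of -0.49 (adjusted p = 0.934), and Dcn of fibroblasts, with 0.37 (adjusted p = 0.966). The part of these in the Ramp2 value was not tested.

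Ramp3, the accessory protein of a further adrenomedullin receptor, had log2 levels of 5.74, 5.95, 5.56, 5.72 and 5.73 in control, 5.68, 5.07, 5.85, 5.48 and 5.29 at 12 h and 5.69, 5.68, 6.0, 5.77 and 5.51 at 24 h. At 12 h, 3 of 5 samples lay below every control sample, with Ang II 12 h replicate 2 the lowest of all 15. Group means were 5.74 ± 0.14 in control, 5.47 ± 0.31 at 12 h and 5.73 ± 0.18 at 24 h (SD, n = 5 each). The log2 difference was -0.27 at 12 h against control (95% interval -0.59 to 0.05, adjusted p = 0.966, exact permutation p = 0.135) and -0.01 at 24 h against control (-0.33 to 0.31). At 12 h it ran from -0.36 without Ang II 12 h replicate 3 to -0.16 without Ang II 12 h replicate 2. Ramp2 and Ramp3 thus had their lowest group means at 12 h and Calcrl its highest there, none of them past the test. This was not particular to them: Edn3, Ednrb and Ece1 also had their lowest means at 12 h, and Ramp1 its highest.

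Ramp1, which turns Calcrl into a receptor for calcitonin gene-related peptide, had mean log2 levels of 6.79 ± 0.16 in control, 6.84 ± 0.17 at 12 h and 6.65 ± 0.28 at 24 h (SD, n = 5 each). Every value of its 15 lay above the mark of low signal, from 6.44 to 7.10. At 24 h, replicate 1 was the highest of all samples and 3 others lay below every control sample. For Ramp1 the log2 difference was 0.05 at 12 h (95% interval -0.26 to 0.37, adjusted p = 0.993) and -0.14 at 24 h (-0.45 to 0.18, adjusted p = 0.906), each against control. With single arrays left out these ran from 0.00 to 0.11 at 12 h and from -0.25 to -0.08 at 24 h.

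**Figure D2:**
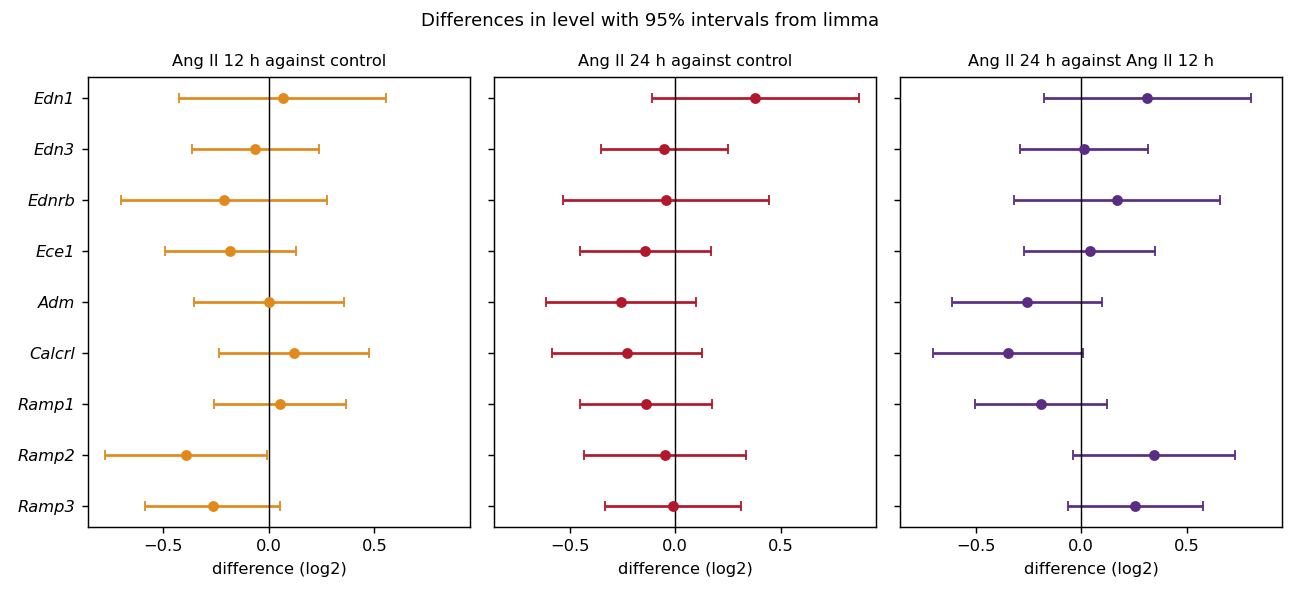
Log2 difference of each gene in the 3 contrasts (each Ang II time against control, and 24 h against 12 h), with 95% intervals from the limma fit. The interval of Ramp2 at 12 h against control, -0.78 to -0.01, was the only one that did not include 0, and its adjusted p was 0.966.

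Likeness of pattern over the 15 samples was measured as the root mean square difference of mean-centred log2 levels, for the genes with the smallest F test p, Ramp2 and Calcrl. For Ramp2, whose own centred values had a root mean square of 0.323, the nearest of the named probe sets were Wdr72 (0.167), Mrpl33 (0.180) and Cert1 (0.187). For Calcrl, at 0.280, they were Trip4 (0.166), Olfr519 (0.170) and Irx4 (0.173). None of the nearest genes belonged to either system.

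Other genes around the systems were taken from 4 lists. The endothelin peptides and processing enzymes were measured by 6 probe sets (Edn2, Ecel1, Kel, Mme, Furin and Cma1), of which 2, Mme and Furin, lay above the mark of low signal. None of the 6 had an unadjusted p under 0.05 in any contrast, and their log2 differences ran from -0.16 to 0.15 at 12 h and from -0.12 to 0.27 at 24 h against control. The adrenomedullin and calcitonin family was measured by 8 probe sets (Adm2, Calcb, Iapp, Calcr, Crcp, Ackr3, Pam and Gpr182). At 24 h against control 1 of the 8 reached an unadjusted p under 0.05, as 7.1% of all probe sets did: Pam, the enzyme that amidates adrenomedullin and other peptides. Its mean log2 levels were 6.38 ± 0.27 in control, 6.58 ± 0.12 at 12 h and 6.77 ± 0.37 at 24 h, a difference of 0.38 at 24 h against control (adjusted p = 0.678). At 24 h against 12 h, 2 of the 8 reached it, where 5.99% of all probe sets did, with log2 differences of 0.40 for Calcr, the calcitonin receptor, and 0.35 for Ackr3, a receptor that removes adrenomedullin (adjusted p = 0.810 each). Without Ang II 12 h replicate 2, which was low, the difference of Calcr was 0.26. Calcr and Ackr3 lay below the mark of low signal, with mean levels of 4.68 and 3.43, and Pam lay above it.

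G proteins and effectors, through which the receptors signal, were measured by 26 probe sets, 9 of them above the mark of low signal. Before adjustment, 1 of the 26 was higher and 0 lower at 12 h against control (4.91% of all probe sets in either direction), 1 higher and 1 lower at 24 h against control (7.1% of all), and 1 higher and 2 lower at 24 h against 12 h (5.99% of all). Their median log2 difference was -0.01 at 12 h and -0.09 at 24 h, beside 0.00 for all probe sets at both times. All the phospholipase C genes counted, Plcb1, Plcb2 and Plcb4, cleave membrane lipid downstream of Gq-coupled receptors. Plcb1 had mean log2 levels of 5.77 ± 0.04 in control, 5.64 ± 0.22 at 12 h and 6.09 ± 0.28 at 24 h, with a difference of 0.33 at 24 h against control (adjusted p = 0.689). Plcb4 had 4.96 ± 0.40 in control, 5.47 ± 0.32 at 12 h and 5.06 ± 0.21 at 24 h, with a difference of 0.51 at 12 h against control (adjusted p = 0.966), or 0.34 without control replicate 3. Between the Ang II times, 24 h against 12 h, the difference was 0.45 for Plcb1 (adjusted p = 0.787) and -0.41 for Plcb4 (adjusted p = 0.823). The log2 difference of Plcb2 was -0.40 at 24 h against control (adjusted p = 0.618), and that of Adcy9, an adenylyl cyclase, was -0.39 at 24 h against 12 h (adjusted p = 0.810), or -0.22 without Ang II 12 h replicate 4. The differences of the 3 phospholipase genes were not all at the same time or of the same sign, and none was past the test. These 3 genes and Adcy9 all lay below the mark of low signal.

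**Figure D3:**
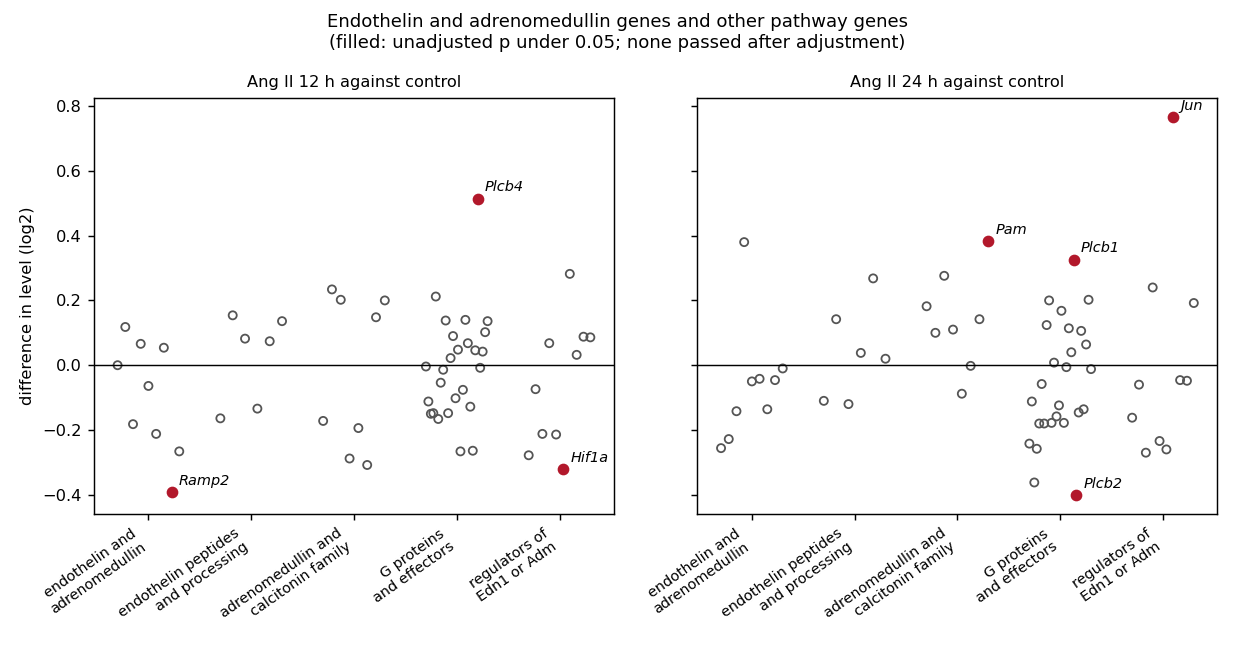
Log2 differences at 12 h and at 24 h against control of the 9 endothelin and adrenomedullin genes and of the probe sets of the other pathway lists, 1 point per probe set, filled where the unadjusted p was under 0.05. Jun at 24 h, with 0.77, was the farthest from 0, and no point shown passed after adjustment.

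Transcriptional regulators of Edn1 or Adm were measured by 10 probe sets, 4 of them above the mark of low signal. Before adjustment, 0 were higher and 1 lower at 12 h against control (4.91% of all probe sets in either direction), and 1 was higher and 0 lower at 24 h against control (7.1% of all) and at 24 h against 12 h (5.99% of all). The first was Hif1a, the oxygen-regulated subunit of a factor that induces both genes in low oxygen, and the other was Jun, a subunit of the AP-1 factor. Hif1a had mean log2 levels of 6.81 ± 0.17 in control, 6.49 ± 0.15 at 12 h and 6.55 ± 0.13 at 24 h (SD, n = 5 each), a difference of -0.32 at 12 h against control (adjusted p = 0.966). Jun had 9.22 ± 0.46 in control, 9.51 ± 0.35 at 12 h and 9.99 ± 0.29 at 24 h, a difference of 0.77 at 24 h against control (standard error 0.21, adjusted p = 0.491), or 0.57 without control replicate 1. For Jun all 5 samples at 24 h lay above all 5 control samples, as 1.07% of all probe sets had groups that did not overlap in that contrast. Adjusted over all probe sets, neither regulator passed, and the partner of Jun in AP-1, Fos, had a log2 difference of -0.27 at 24 h against control, or -0.16 without Ang II 24 h replicate 3. Fos lay below the mark of low signal, with a mean level of 4.41.

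The promoters of Edn1 and Adm are shown because the regulators were listed for these genes. They are RefSeq windows of 300 bases of the GRCm38.p6 build, 250 before and 50 after the start of the gene. Both lie on the plus strand, at chr13:42301226-42301525 for Edn1 and at chr7:110627407-110627706 for Adm. The letters ACGTG or their reverse complement, used here for the core of the hypoxia response element, are in capitals.
Edn1: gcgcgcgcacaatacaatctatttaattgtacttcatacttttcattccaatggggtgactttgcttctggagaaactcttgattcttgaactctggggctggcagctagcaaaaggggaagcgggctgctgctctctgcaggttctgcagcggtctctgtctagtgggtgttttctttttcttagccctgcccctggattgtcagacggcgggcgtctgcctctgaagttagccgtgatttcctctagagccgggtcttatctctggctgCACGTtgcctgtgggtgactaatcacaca
Adm: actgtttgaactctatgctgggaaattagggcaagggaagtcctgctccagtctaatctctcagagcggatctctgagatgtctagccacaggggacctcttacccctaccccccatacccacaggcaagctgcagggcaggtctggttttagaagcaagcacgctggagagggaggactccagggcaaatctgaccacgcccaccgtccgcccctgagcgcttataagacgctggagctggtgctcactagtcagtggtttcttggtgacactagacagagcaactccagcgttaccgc
The capitals in the Edn1 window mark its 1 match, and the Adm window held no match to these letters. Of the 10 genes 9 had such windows, 12 in all, and Ramp2 had none. The letters ACGTG were found on either strand in 2 of the 12 windows, that of Edn1 and 1 of those of Ece1, and in 19.6% of all 32851 windows. The letters TGANTCA, used here for AP-1, were in 0 of the 12 and in 7.81% of all windows. Sites that differ from the letters given were not searched for, such as tgactaa near the end of the Edn1 window or cacgc in the Adm window. The counts therefore do not show that a window lacks an AP-1 site or a hypoxia response element. A match describes the letters of the window only.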

How the data were processed

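Total RNA of 15 cell samples was hybridized to Affymetrix arrays. The authors read the arrays with GCOS (its version is not given) and normalized them with RMA in the Transcriptome Analysis Console, and the deposited values are log2 expression levels printed with 2 decimals. The identifiers belong to another array design than the methods name. The sources used here give neither a genome build nor a filter for these values. The number of arrays limits the precision.

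Groups came from the labels. Symbols came from the platform annotation, which left 2634 probe sets without a single symbol. All probe sets were fitted with limma 3.58.1 in R 4.3.3, sharing 1 variance per probe set across the 3 groups (prior degrees of freedom 8.03), with Benjamini-Hochberg adjustment, and the fit was tested on simulated data. Single genes were also given two-sided exact permutation tests over samples.

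The genes and lists were chosen with earlier results of these data known. Named were all 10 genes where measured, with every value for those with an unadjusted p under 0.05, up to 4 genes of each list with the smallest F test p among those under 0.05, and the 3 nearest patterns of 2 genes. The values of every sample of other genes, and Pam, Calcr, Ackr3, Plcb2, Adcy9, Hif1a and Fos, were added after their values were seen. Alternatives were other normalizations, an intensity filter, other variance models, Duncan's multiple range test, a replicate block, averaged probe sets, 2-group fits, and leaving out arrays, which for the other pathway genes was added after seeing the data. The PCR, protein and animal experiments were not analysed here.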

Additional observations from a re-analysis of the deposited data

Results flagged for a closer look

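Of 54 groups of 5 samples, 3 for each of 18 genes (the 9 measured genes and other pathway genes), 4 held a sample whose gap to its nearest neighbour exceeded Dixon's 95% critical share of the group's range, where chance gives about 1 in 20. For Ece1, Ang II 12 h replicate 4 had a log2 level of 4.97, and the others of that group 5.25 to 5.31. For Calcr, the calcitonin receptor, Ang II 12 h replicate 2 had 3.88 and the others 4.47 to 4.70. For Hif1a, Ang II 24 h replicate 1 had 6.33 and the others 6.59 to 6.66. For Jun, control replicate 1 had 8.43 and the others 9.27 to 9.52. These samples came from 4 different arrays, none of which was among those that stood apart over all probe sets.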

How the results depend on the processing

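No alternative brought any of the 9 genes past an adjusted p of 0.05, and the lowest adjusted p over all of them was 0.720. Of 717 values that the alternatives gave for the 27 differences (9 genes, 3 contrasts), 694 kept their direction and their side of the threshold. Many alternatives changed only the variance model, the test, other probe sets or the arrays of a group outside the contrast. Under these the difference itself could not change. For the exact permutation tests the side was that of the unadjusted p. The count of 694 is therefore no measure of robustness by itself. The unadjusted call of Ramp2 at 12 h against control, 1 of 9, became 0 with no moderation, with array weights, with the 2 groups alone, with Duncan's test, without both arrays that stood apart, and among probe sets above the median mean level, where 5 of the 9 remained and Ramp2 did not. By the exact permutation test its difference of -0.39 had p = 0.127. Calcrl at 24 h against 12 h raised the unadjusted count to 1 with quantile normalization and with array weights. Differences near 0 changed sign: without both arrays that stood apart Edn3 at 24 h against 12 h was -0.034, Ednrb at 24 h against control 0.055 and Ramp2 at 24 h against control 0.045 (0.0111 for Ednrb with array weights).

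With each array left out in turn, the unadjusted count was 0 to 1 of 9 in the F test, at 12 h and at 24 h against control, and 0 to 3 at 24 h against 12 h. The count of 3 came without Ang II 12 h replicate 1 (Edn1, Calcrl and Ramp2). The log2 difference of Ramp2 at 12 h against control was -0.52 to -0.27, and its unadjusted call was lost when replicate 2, 3 or 4 of the 12 h group, replicate 1, 2, 3 or 4 of the 24 h group, or replicate 2, 3 or 5 of control was left out. At 12 h against control Edn1 ranged from -0.145 to 0.2125 and Edn3 from -0.131 to 0.004. At 24 h against control Edn3 ranged from -0.117 to 0.0395, Ednrb from -0.1925 to 0.1455, Ramp2 from -0.17 to 0.0725 and Ramp3 from -0.0775 to 0.045, and at 24 h against 12 h Edn3 from -0.034 to 0.1035 and Ece1 from -0.0435 to 0.1265. The cause was not tested.

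Samples with the same replicate number did not deviate together (r = -0.0426 to 0.0451 over 15 pairs), and with the replicate number as a block 0 of 9 were called and Ramp2 at 12 h against control stayed the 1 with an unadjusted p under 0.05. The dim signal of 8 of the 9 probe sets limits what these arrays can show.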
